A study of Mus musculus with 12 samples.

Results

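The Gadd45 genes and the stress kinases they act on were followed across 12 lung expression arrays of mice. The set held 10 genes, listed by name: Gadd45a, Gadd45b and Gadd45g, the MAP kinase kinase kinases Map3k4 and Map3k5, the MAP kinase kinases Map2k4, Map2k6 and Map2k7, and the MAP kinases Mapk8 and Mapk14. The platform annotation named 25 of 45037 probe sets for 9 of these genes. No probe set was named for Map2k7 in the annotation used, so that gene was not analysed here. A filter on low values kept 21 of the 25 probe sets and all of the 9 genes, which were tested among 10996 genes.

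Each of 4 groups held 3 arrays from 3 mice aged 8 to 12 weeks. Genotypes were wild type and GADD45-/-, a knockout that the series title ties to GADD45a. Treatments were SB, which the labels do not spell out and whose wild type group is the control in the series design, and VILI, ventilator-induced lung injury. VILI mice were ventilated for 4 hours with a tidal volume of 30 ml/kg and 65 breaths per minute. The sources used here do not name the strain, the sex or how the knockout was made. All values are log2 expression levels as deposited, so a difference of 1 is a doubling.

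Gadd45 proteins are small nuclear proteins without enzymatic activity that are induced by DNA damage and other stresses. They bind the kinase encoded by Map3k4 and open it for activation, and they also bind cell cycle proteins such as PCNA and p21. Below Map3k4 the cascade runs through MAP kinase kinases to JNK (Mapk8) and p38 (Mapk14), which phosphorylate transcription factors of the stress response. The arrays report transcript levels and not kinase activity.

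The 3 Gadd45 genes lie on different chromosomes, and their promoter windows were searched for short motifs. The sequences are the 250 bases before each annotated start, from RefSeq on build GRCm38.p6, 5′ to 3′ on the gene's strand. Capitals mark matches to the octamer (ATTTGCAT), the CCAAT box (CCAAT), the TATA box (TATAAA) and the E-box (CACGTG), each searched on both strands, and no matches overlap. The Gadd45a window lies on the minus strand at chr6:67037408-67037657, that of Gadd45b on the plus strand at chr10:80929841-80930090, and that of Gadd45g on the plus strand at chr13:51846425-51846674.
Gadd45a: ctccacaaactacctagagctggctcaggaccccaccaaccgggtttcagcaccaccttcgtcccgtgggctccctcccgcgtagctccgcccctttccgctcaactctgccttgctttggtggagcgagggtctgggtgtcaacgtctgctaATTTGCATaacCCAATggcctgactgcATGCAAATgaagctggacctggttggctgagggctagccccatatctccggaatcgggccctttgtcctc
Gadd45b: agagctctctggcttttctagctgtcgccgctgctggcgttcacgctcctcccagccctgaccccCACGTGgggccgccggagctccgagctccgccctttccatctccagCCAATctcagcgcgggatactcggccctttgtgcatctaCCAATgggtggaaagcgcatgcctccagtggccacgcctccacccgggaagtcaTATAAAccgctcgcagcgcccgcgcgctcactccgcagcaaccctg
Gadd45g: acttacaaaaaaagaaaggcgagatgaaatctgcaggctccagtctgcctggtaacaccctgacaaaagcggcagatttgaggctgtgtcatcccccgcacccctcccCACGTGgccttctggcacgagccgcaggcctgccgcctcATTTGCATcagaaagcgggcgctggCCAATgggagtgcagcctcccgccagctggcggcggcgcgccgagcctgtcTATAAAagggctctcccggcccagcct
All 3 windows hold a CCAAT box, which 33.8% of 32851 RefSeq promoter windows of this length hold. Gadd45a holds 2 octamers, 1 on each strand, and Gadd45g holds 1. An octamer was found in 1.6% of all windows. Gadd45b and Gadd45g each hold a TATA box (12.4% of windows) and an E-box (6.02% of windows), and neither motif was found in the Gadd45a window. Matches to AP-1 (TGANTCA, 6.75% of windows), the cyclic AMP response element (TGACGTCA, 1.55%), an Egr site (GCGTGGGCG, 0.536%) and NF-kB (7.25%) were not in these 3 windows. Promoter entries were found for all 10 genes, and an octamer or E-box was in none of the windows of the 7 kinase genes.

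The arrays themselves set some limits. Medians of the 12 arrays over all probe sets lay between 4.36 and 4.58, and arrays of 1 group correlated at 0.963 to 0.995. Over the arrays, 4 type II epithelial markers averaged 13.35 to 13.97 and 6 endothelial markers 11.23 to 12.14, while 3 ciliated cell markers averaged 5.40 to 7.12. The mean of 6 heart muscle markers varied between arrays, from 8.61 (wild type SB replicate 2) to 11.60 (wild type VILI replicate 3). Neutrophil markers moved with VILI in both genotypes. Of 8 tested, 7 rose in wild type and 7 in knockout, beside 2.64% and 4.47% of all genes called. The mean level of the 8 on wild type arrays was 7.03 to 7.69 in SB and 9.67 to 10.86 in VILI. On knockout arrays it was 7.67 to 8.14 in SB and 10.14 to 11.40 in VILI. Averaged over genotypes, 3 of 3 ciliated cell markers, 3 of 3 club cell markers and 3 of 6 endothelial markers fell, with 1 each of the type I, type II and fibroblast markers, where 9.39% of all genes were called lower. The knockout arrays numbered 3, 1 in SB and 1 in VILI, had the highest mean of 5 B cell markers (10.35 and 10.84, against 5.98 to 8.13 on the others). The part of these cells in the changes described next was not tested. In whole lung, fewer cells of a type and less RNA per cell cannot be told apart.

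Gadd45a is the member that the knockout targets. Its single probe set read 8.62, 9.51 and 8.69 in wild type SB and 9.75, 9.77 and 10.33 in wild type VILI. It read 4.87, 6.15 and 4.58 in knockout SB and 5.87, 6.02 and 5.36 in knockout VILI. Every wild type array lay above every knockout array, by at least 3.19 between the nearest group means (8.94 ± 0.50 in wild type SB, 5.75 ± 0.34 in knockout VILI; SD, n = 3). The order of the group means was wild type VILI, wild type SB, knockout VILI and knockout SB. The knockout groups did not differ beyond their spread (5.75 ± 0.34 and 5.20 ± 0.84, SD, n = 3), and the other neighbours in that order did. Averaged over treatments, Gadd45a was lower in knockout by a factor of 15.6 (log2 difference -3.97, SE 0.27, limma adjusted p = 1.94e-05). The factor is approximate, since knockout readings of 4.58 to 6.15 lay near the array medians (4.36 to 4.58). In that contrast 1 of 9 members, Gadd45a itself, was called for genotype, against 0.455% of all genes. The same 1 of 9 was called in SB (0.109% of all genes) and after VILI (0.1% of all genes). Fitted on the arrays of SB mice alone, the difference there of -3.74 had an adjusted p of 0.0627. Whether the probes lie within the deleted part was not tested.

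The VILI arrays of wild type mice all read above the SB arrays for Gadd45a, by 2.01-fold between the means. That log2 difference of 1.01 (SE 0.38) did not pass (adjusted p = 0.167), and 31.6% of all genes had wild type groups that did not overlap. In knockout arrays, where the remaining signal is low, the difference was 0.55 (SE 0.38, adjusted p = 0.433) and the groups overlapped. Averaged over genotypes the Gadd45a change was 0.78 (SE 0.27, limma adjusted p = 0.0683) and did not pass. It passed in 3 of 21 other settings, with adjusted p from 0.0103 to 0.14 over the settings.

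Gadd45g, an oncostatin M and cytokine responsive relative, rose with VILI. Its single probe set read 10.63, 10.23 and 9.995 in wild type SB and 11.21, 11.26 and 11.01 in wild type VILI. In knockout it read 10.08, 10.22 and 9.47 in SB and 11.03, 10.76 and 10.06 in VILI. The wild type groups did not overlap, and the knockout groups did, through replicate 3 of VILI. The knockout arrays numbered 3, those with the highest B cell marker levels, were each the lowest of their group. Averaged over genotypes Gadd45g rose 1.72-fold (log2 0.79, SE 0.18, adjusted p = 0.0157). Within 1 genotype the difference was 0.88 in wild type (SE 0.26, adjusted p = 0.0907) and 0.69 in knockout (SE 0.26, adjusted p = 0.147), and neither passed. The wild type value passed in 3 of 22 other settings, and its highest adjusted p was 0.269. Without both knockout arrays numbered 3 it stood at an adjusted p of 0.0231, with the same difference of 0.88. With a replicate block it stood at 0.0187 and the knockout value at 0.0302, the only 1 of 22 other settings where the knockout value passed. Knockout arrays read lower than wild type by 0.36 in SB and 0.55 after VILI on average (adjusted p = 0.664 and 0.732). The interval of the difference averaged over treatments, -0.85 to -0.05 (95%), did not reach the adjusted threshold (adjusted p = 0.291). In the order wild type VILI, knockout VILI, wild type SB and knockout SB, only the first neighbours differed beyond their spread (11.16 ± 0.13 and 10.61 ± 0.50, SD, n = 3), and their arrays overlapped.

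Gadd45b, first found as a gene of myeloid differentiation and a target of NF-kB, passed for VILI averaged over genotypes on 1 of its 2 kept probe sets. The probe set with the higher level read 10.10, 10.07 and 9.82 in wild type SB and 10.17, 10.32 and 10.13 in wild type VILI. In knockout it read 9.91, 9.54 and 10.20 in SB and 10.57, 10.38 and 9.73 in VILI, so the knockout groups overlapped and the wild type groups did not. Its change averaged over genotypes was 0.28 (SE 0.15, adjusted p = 0.216). Without knockout VILI replicate 3 it was 0.40 (adjusted p = 0.0469), and without both knockout arrays numbered 3 it was 0.48 (adjusted p = 0.0162). In 18 of 21 other settings it did not pass (highest adjusted p = 0.388). The other kept probe set, with means of 8.80 ± 0.18 and 8.64 ± 0.17 in the SB groups and 9.24 ± 0.01 and 9.23 ± 0.32 in the VILI groups (wild type first; SD, n = 3), rose by 0.51 in the fit over all kept probe sets (SE 0.12, adjusted p = 0.0181). On that probe set neither genotype's VILI arrays overlapped its SB arrays. A further probe set stayed between 2.04 and 2.06 on all arrays, below every array's median. In the order knockout VILI, wild type VILI, wild type SB and knockout SB, only the middle pair differed beyond its spread. The genotype differences of Gadd45b were -0.11 in SB (95% interval -0.58 to 0.35) and 0.02 after VILI (-0.45 to 0.48).

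Whether Gadd45g and Gadd45b responded unequally was tested on the difference between them within each array. On wild type arrays that difference was 0.16 to 0.52 in SB and 0.88 to 1.04 in VILI. On knockout arrays it was -0.73 to 0.68 in SB and 0.32 to 0.46 in VILI. It rose by 0.51 with VILI averaged over genotypes (two-sided exact permutation p = 0.04, treatment labels permuted within genotype in 400 assignments, smallest possible p = 0.005). The wild type arrays moved by 0.67 and the knockout arrays by 0.35. With the other kept probe set of Gadd45b, a choice made after the values were seen, the change was 0.27 (exact permutation p = 0.09), and leaving out any 1 of 10 arrays also took p to 0.05 or above.

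**Figure D1:**
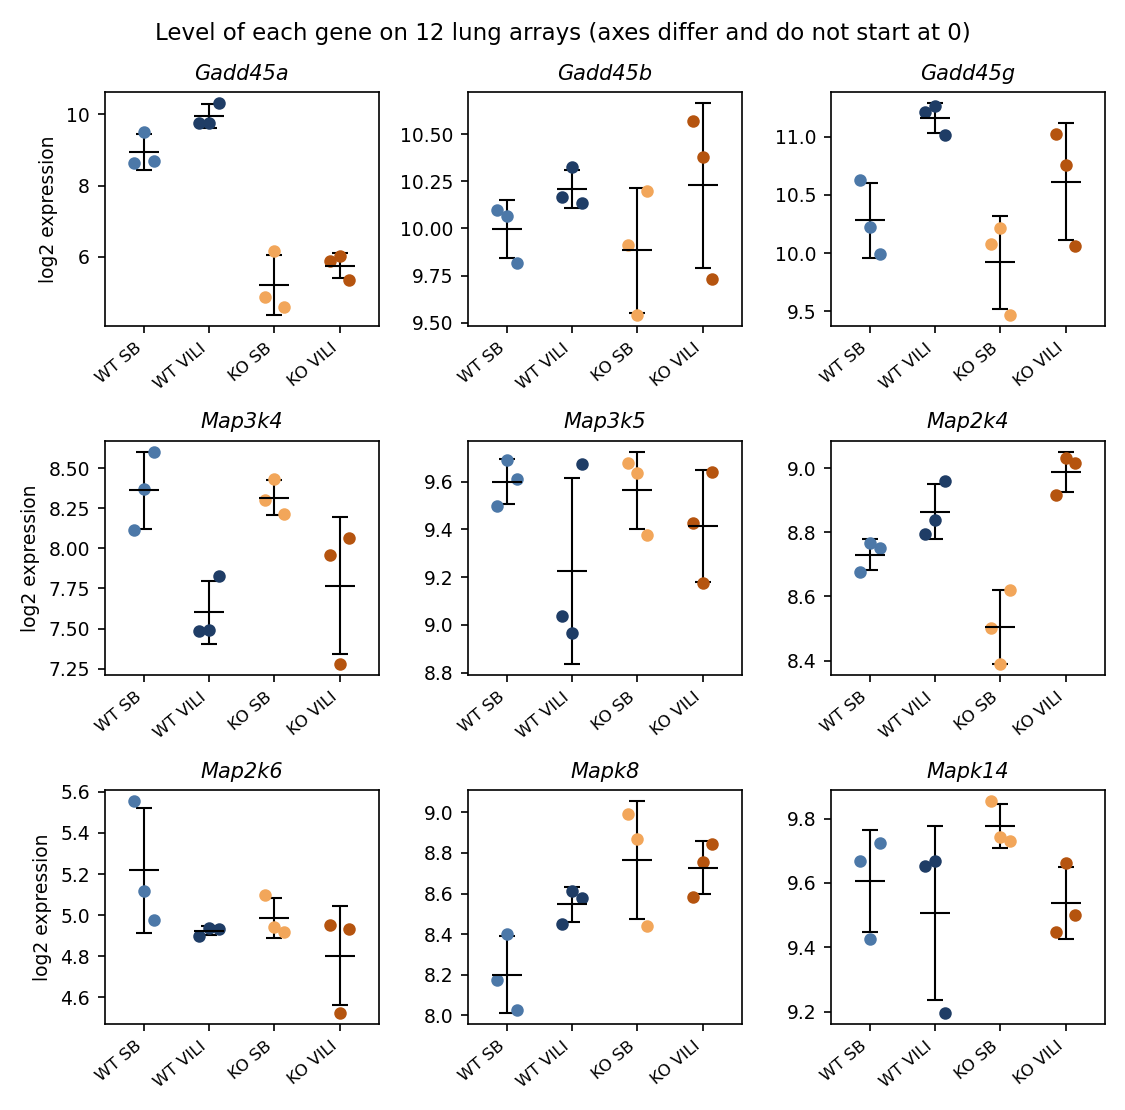
Log2 expression of the 9 tested genes by group, with 1 point per array and a bar for the mean ± SD of 3 arrays; WT is wild type, KO is knockout, and the axes differ between panels. Gadd45a separates the genotypes, Gadd45g reads higher in VILI groups, Map3k4 reads lower in VILI groups, and Map2k4 has its lowest values in knockout SB (8.39 to 8.62).

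Map3k4, the kinase that Gadd45 proteins bind directly, fell with VILI, the opposite direction to Gadd45g. Its probe set read 8.11, 8.37 and 8.60 in wild type SB and 7.49, 7.49 and 7.83 in wild type VILI. In knockout it read 8.30, 8.43 and 8.22 in SB and 7.96, 7.28 and 8.06 in VILI. In both genotypes each VILI array lay below each SB array. Averaged over genotypes the log2 level changed by -0.66 (SE 0.15, limma adjusted p = 0.0131), to 0.635 of the SB level. Within genotype the differences were -0.76 in wild type (SE 0.21, adjusted p = 0.0759) and -0.55 in knockout (SE 0.21, adjusted p = 0.15). The wild type value passed in 1 of 22 other settings, without knockout VILI replicate 2 (adjusted p = 0.0341), and its highest adjusted p was 0.249. The 4 kept probe sets of Map3k4 all moved down in the average, by 0.39 to 0.66, and 3 of them passed in the fit over all kept probe sets. The exception, at -0.39, had an adjusted p of 0.106 and lay close to the array medians. The SB groups of both genotypes stood highest (8.36 ± 0.24 in wild type, 8.32 ± 0.11 in knockout; SD, n = 3) and did not differ beyond their spread. The VILI groups likewise did not differ beyond it (7.60 ± 0.20 and 7.77 ± 0.43, SD, n = 3).

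One of the Map3k4 probe sets differed from the others by genotype. It read 7.07, 7.23 and 7.36 in wild type SB and 7.85, 7.64 and 7.81 in knockout SB. After VILI it stood at 6.91 ± 0.31 in wild type and 7.01 ± 0.05 in knockout (SD, n = 3), where the groups overlapped. The knockout SB difference of 0.55 did not pass (SE 0.17, adjusted p = 0.335), while its fall with VILI in knockout did (-0.76, SE 0.17, adjusted p = 0.0416).

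Map3k5 encodes ASK1, a MAP kinase kinase kinase that thioredoxin holds inactive until oxidants release it. Wild type arrays read 9.50, 9.69 and 9.61 in SB and 9.04, 8.97 and 9.67 in VILI. Knockout arrays read 9.68, 9.64 and 9.38 in SB and 9.43, 9.17 and 9.64 in VILI. All groups overlapped, and no neighbours in the order of means differed beyond their spread. The VILI change averaged over genotypes was -0.26 (SE 0.13, adjusted p = 0.189). Its other probe set was higher in knockout than in wild type by 0.29 averaged over treatments without passing (SE 0.08, adjusted p = 0.209).

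Map2k4, or MKK4, phosphorylates JNK and to a lesser degree p38. It rose with VILI averaged over genotypes by 0.31 (SE 0.07, adjusted p = 0.0166), a 1.24-fold change. Wild type arrays read 8.67, 8.77 and 8.75 in SB and 8.79, 8.84 and 8.96 in VILI. Knockout arrays read 8.50, 8.39 and 8.62 in SB and 8.92, 9.03 and 9.02 in VILI. The VILI arrays lay above the SB arrays in each genotype, and knockout SB was the lowest group, with no overlap with wild type SB. Every neighbouring pair of group means differed beyond its spread. In knockout the rise was 0.48 (SE 0.10, adjusted p = 0.0261), and 1 of 9 members, Map2k4, was called there, against 4.47% of all genes. In wild type the difference was 0.13 (SE 0.10, adjusted p = 0.495). The difference between the genotypes in this response was 0.35 (SE 0.15, unadjusted p = 0.0354, adjusted p = 1). The knockout call was lost without knockout SB replicate 1 (adjusted p = 0.0729) or 2 (0.072) and without knockout VILI replicate 2 (0.107) or 3 (0.0748), and also with centred arrays (0.0539). The other probe set of Map2k4, at a lower level (means of 6.29 to 6.63), changed by 0.11 averaged over genotypes (SE 0.15, adjusted p = 0.684).

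Map2k6, or MKK6, activates p38 and lay nearest to the filter. Its readings ran from 4.52 to 5.56, and the array medians from 4.36 to 4.58, so its fold changes are approximate. From highest to lowest, the group means were 5.22 ± 0.30 for wild type SB, 4.99 ± 0.10 for knockout SB, 4.92 ± 0.02 for wild type VILI and 4.80 ± 0.24 for knockout VILI (SD, n = 3). No neighbours in that order differed beyond their spread, and the VILI change averaged over genotypes was -0.24 (SE 0.13, adjusted p = 0.225).

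Mapk8 encodes JNK1, the kinase that phosphorylates c-Jun. Its probe set read 8.17, 8.40 and 8.03 in wild type SB, the lowest group, and 8.45, 8.61 and 8.58 in wild type VILI. In knockout it read 8.99, 8.87 and 8.44 in SB and 8.58, 8.76 and 8.84 in VILI. Every knockout SB array lay above every wild type SB array, and 15.2% of all genes had SB groups that did not overlap. That difference of 0.57 did not pass (SE 0.16, unadjusted p = 0.00408, adjusted p = 0.31). After VILI the genotype difference was 0.18 (SE 0.16, adjusted p = 0.816). The VILI difference was 0.35 in wild type (adjusted p = 0.237) and -0.04 in knockout (adjusted p = 0.911), with an interaction of -0.39 (SE 0.22, adjusted p = 1). The other kept probe sets gave smaller SB genotype differences, of 0.19 and 0.06. A pair of further Mapk8 probe sets stayed below the array median on all arrays.

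Mapk14 encodes p38 alpha, which acts on cytokine mRNA stability and on transcription factors. The probe set with the highest level had a narrow range, 9.20 to 9.86. Wild type arrays read 9.67, 9.43 and 9.72 in SB and 9.65, 9.67 and 9.20 in VILI. Knockout arrays read 9.86, 9.74 and 9.73 in SB, where they lay above wild type, and 9.45, 9.66 and 9.50 in VILI. Its VILI change averaged over genotypes was -0.17 (SE 0.10, adjusted p = 0.256), with a 95% interval from -0.39 to 0.05. A lower probe set spread far more between arrays, from 4.90 to 7.25. It read 5.61, 5.05 and 5.64 in wild type SB and 7.25, 6.90 and 6.35 in knockout SB, a difference of 1.40 that did not pass (SE 0.55, adjusted p = 0.42). In the VILI groups its replicate 3 arrays read 4.94 and 4.90, and the remaining VILI arrays 6.21 to 7.05. A second probe set had the same shape, with 7.04 to 7.39 in wild type SB, 7.77 to 8.09 in knockout SB and a difference of 0.77 (adjusted p = 0.458). Of the 5 kept probe sets of the gene, 2 gave a positive and 3 a negative VILI change averaged over genotypes, and 0 passed (0 also at an unadjusted p under 0.05).

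**Figure D2:**
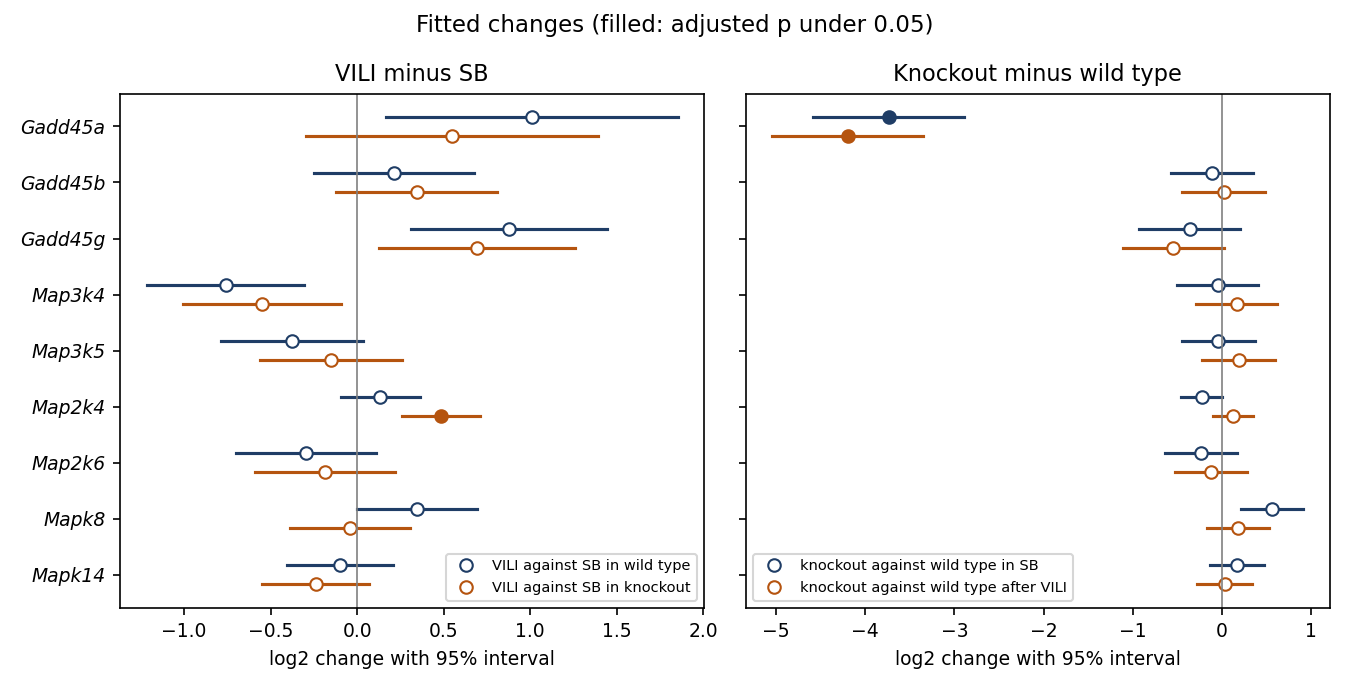
Fitted log2 changes of the 9 genes with 95% intervals, VILI minus SB on the left and knockout minus wild type on the right; filled points passed at an adjusted p under 0.05. Gadd45a in the genotype panel (-3.74 in SB and -4.20 after VILI) and Map2k4 for VILI in knockout (0.48) are the filled points.

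As a group the members split in direction. Averaged over genotypes, VILI raised 2 of 9 members (Gadd45g and Map2k4) and lowered 1 (Map3k4), where 17.8% of all genes tested were called (8.42% higher and 9.39% lower). The median change of the 9 was 0.15, beside -0.03 for all genes. In wild type alone limma called 0 of 9 members, against 2.64% of all genes. At an unadjusted p under 0.05 there were 3, Gadd45a, Gadd45g and Map3k4, against 21.2% of all genes. In knockout there were also 3, Gadd45g, Map3k4 and Map2k4, against 22.2%. For genotype in SB there were 2, Gadd45a and Mapk8, against 10.1%. In wild type 7 of 9 members had groups that did not overlap, and 3 of 9 had in knockout, beside 31.6% and 23.6% of all genes. In SB the genotypes did not overlap for 4 of 9 members (Gadd45a, Map2k4, Mapk8 and Mapk14), beside 15.2% of all genes. After VILI they did not overlap for 1 of 9, Gadd45a, beside 14.8%. Leaving out Gadd45a, which the knockout targets, gave 3 of 8 in SB and 0 of 8 after VILI. The nearest Mapk14 readings in SB were 9.7305 in knockout and 9.7243 in wild type. The interaction of genotype and VILI was called for 0 of 9 members and 0% of all genes, and 1 member, Map2k4, had an unadjusted p under 0.05, against 2.62% of all genes. Without Gadd45a, genotype was called for 0 of 8 members in either treatment. Their median difference was -0.08 in SB and 0.08 after VILI, beside -0.06 and -0.01 for all genes. Over the 12 arrays Map3k4 ran against Gadd45g (Pearson r = -0.744) and with Map3k5 (r = 0.802), and Gadd45g ran with Gadd45b (r = 0.553) and Gadd45a (r = 0.588). These values describe arrays that share treatment and genotype differences.

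**Figure D3:**
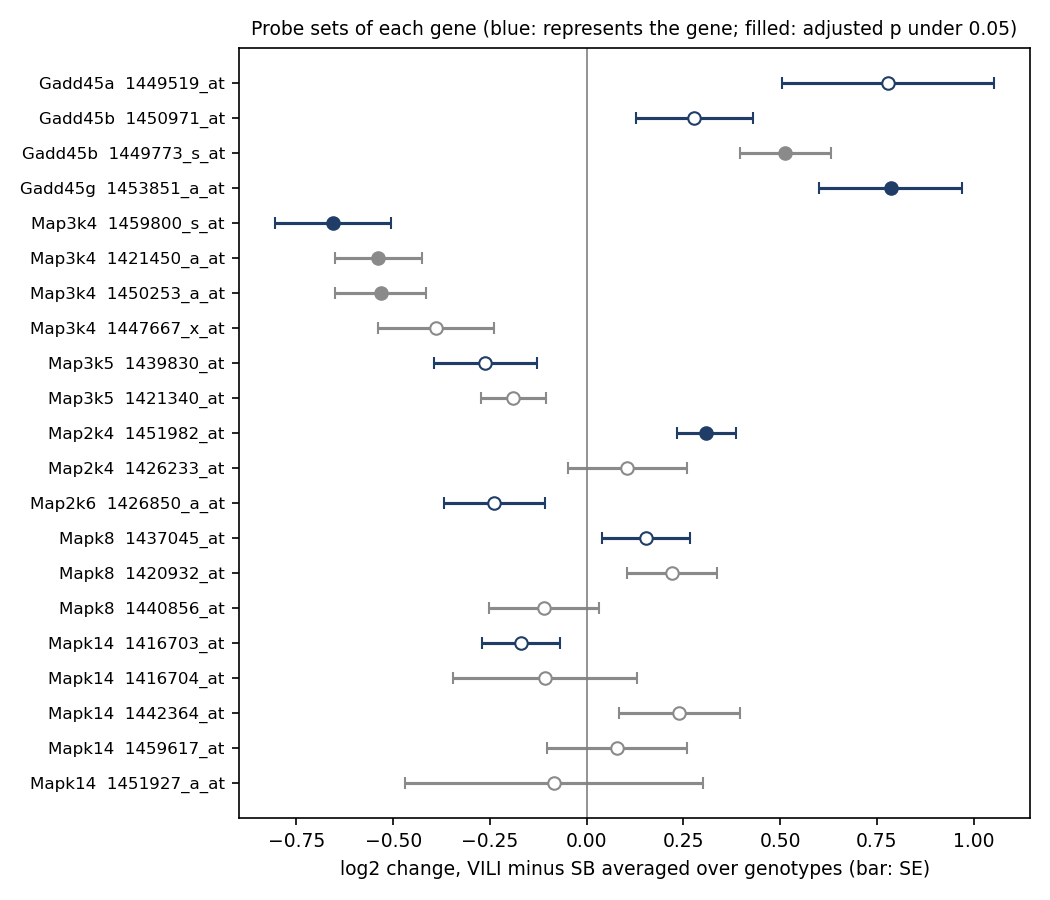
Log2 change, VILI minus SB averaged over genotypes, with its SE for each of the 21 kept probe sets, from the fit over all kept probe sets; blue points represent the gene in the main test and filled points passed. The 4 Map3k4 probe sets lie together below 0 (-0.66 to -0.39), whereas those of Mapk14 lie on both sides of 0.

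The rest of the pathway was followed through 8 lists with 80 genes, of which 65 were tested. VILI averaged over genotypes raised 8 and lowered 2 of the 65, beside 8.42% of all genes called higher and 9.39% called lower. Together the 10 called were a smaller share than the 17.8% of all genes called. In wild type 3 rose and 1 fell, beside 2.64% of all genes called, and in knockout 2 rose and 1 fell, beside 4.47%. Without both knockout arrays numbered 3 the knockout count went from 3 to 1, and with only the knockout arrays in the fit it was 0. The wild type count went from 4 to 0 without wild type SB replicate 3 or wild type VILI replicate 2, and to 1 without wild type VILI replicate 1 or 3. Genotype was called by limma for 0 of 65 in SB, after VILI and averaged over treatments, with 1 in the average without knockout VILI replicate 1. The counts of each list below are for VILI averaged over genotypes, beside the same 8.42% of all genes called higher and 9.39% called lower.

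Among 14 other MAP kinase kinase kinases 2 rose. Map3k8, or Tpl2, which activates the ERK branch downstream of Toll-like receptors, went from 7.62 ± 0.59 to 9.20 ± 0.26 in wild type and from 8.21 ± 0.45 to 9.39 ± 0.36 in knockout (SD, n = 3), a log2 change of 1.38 averaged over genotypes (SE 0.22, adjusted p = 0.00277). Map3k6, or ASK2, the partner of ASK1, rose by 0.72 (SE 0.17, adjusted p = 0.0153). In both genotypes the VILI arrays of these genes lay above the SB arrays. Of 6 other stress kinases at the lower tiers, Mapk12, which encodes p38 gamma, fell by 0.65 (SE 0.15, adjusted p = 0.0132), and its wild type VILI arrays read 7.94, 7.94 and 7.95.

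Of 10 scaffolds and adaptors, Txnip fell. It encodes the protein that binds and inhibits thioredoxin, and it went from 13.84 ± 0.09 to 13.27 ± 0.14 in wild type and from 14.15 ± 0.24 to 13.29 ± 0.12 in knockout (SD, n = 3). The log2 changes were -0.57 (adjusted p = 0.0359) and -0.87 (adjusted p = 0.00595), with no overlap of the groups in either genotype. The wild type call was lost in 11 of 22 other settings (highest adjusted p = 0.119, without wild type VILI replicate 2). Thioredoxin itself, Txn1, was at 0.07 (SE 0.05, adjusted p = 0.313).

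Of 12 kinases and transcription factors downstream, Jun rose by 0.46 averaged over genotypes (SE 0.09, adjusted p = 0.00784). Wild type arrays read 12.02, 12.33 and 12.32 in SB and 13.00, 12.91 and 12.98 in VILI. Knockout arrays read 12.48, 12.37 and 12.83 in SB and 12.74, 12.90 and 12.59 in VILI. The change was 0.74 in wild type (SE 0.13, adjusted p = 0.0206) and 0.18 in knockout (SE 0.13, adjusted p = 0.436), and the difference between them of -0.56 did not pass (SE 0.18, unadjusted p = 0.0112, adjusted p = 1). Of 7 phosphatases of JNK and p38, Dusp16, which dephosphorylates JNK, rose by 0.79 (SE 0.19, adjusted p = 0.0173), and Dusp1 was at -0.18 (SE 0.10, adjusted p = 0.251).

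Of 12 listed transcription factors that act on Gadd45 genes, 7 were tested. Of these 4 rose and 0 fell, beside 8.42% of all genes called higher and 9.39% called lower. The list median was 0.41, beside -0.03 for all genes, and the list was chosen with earlier results of these data known. Myc, which represses Gadd45a, rose by 2.46 (SE 0.26, adjusted p = 0.000412), from 5.21 ± 0.66 to 7.76 ± 0.30 in wild type and from 5.63 ± 0.05 to 7.99 ± 0.75 in knockout (SD, n = 3). Egr1, an immediate early factor, rose by 2.62 (SE 0.45, adjusted p = 0.00379). Atf4, the main factor of the amino acid and unfolded protein response, rose by 0.78 (SE 0.18, adjusted p = 0.0153). Rela, the p65 subunit of NF-kB, was higher by 0.41 with an adjusted p of 0.0202. The Rela call was lost in 3 of 21 other settings: with centred arrays (adjusted p = 0.0547), without wild type VILI replicate 2 and without knockout VILI replicate 2. Of the 7 tested Gadd45 binding partners outside the cascade 0 were called, and the same held for the 2 GADD genes of other families, Ddit3 (-0.22, SE 0.16, adjusted p = 0.368) and Ppp1r15a (0.27, SE 0.14, adjusted p = 0.214).

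**Figure D4:**
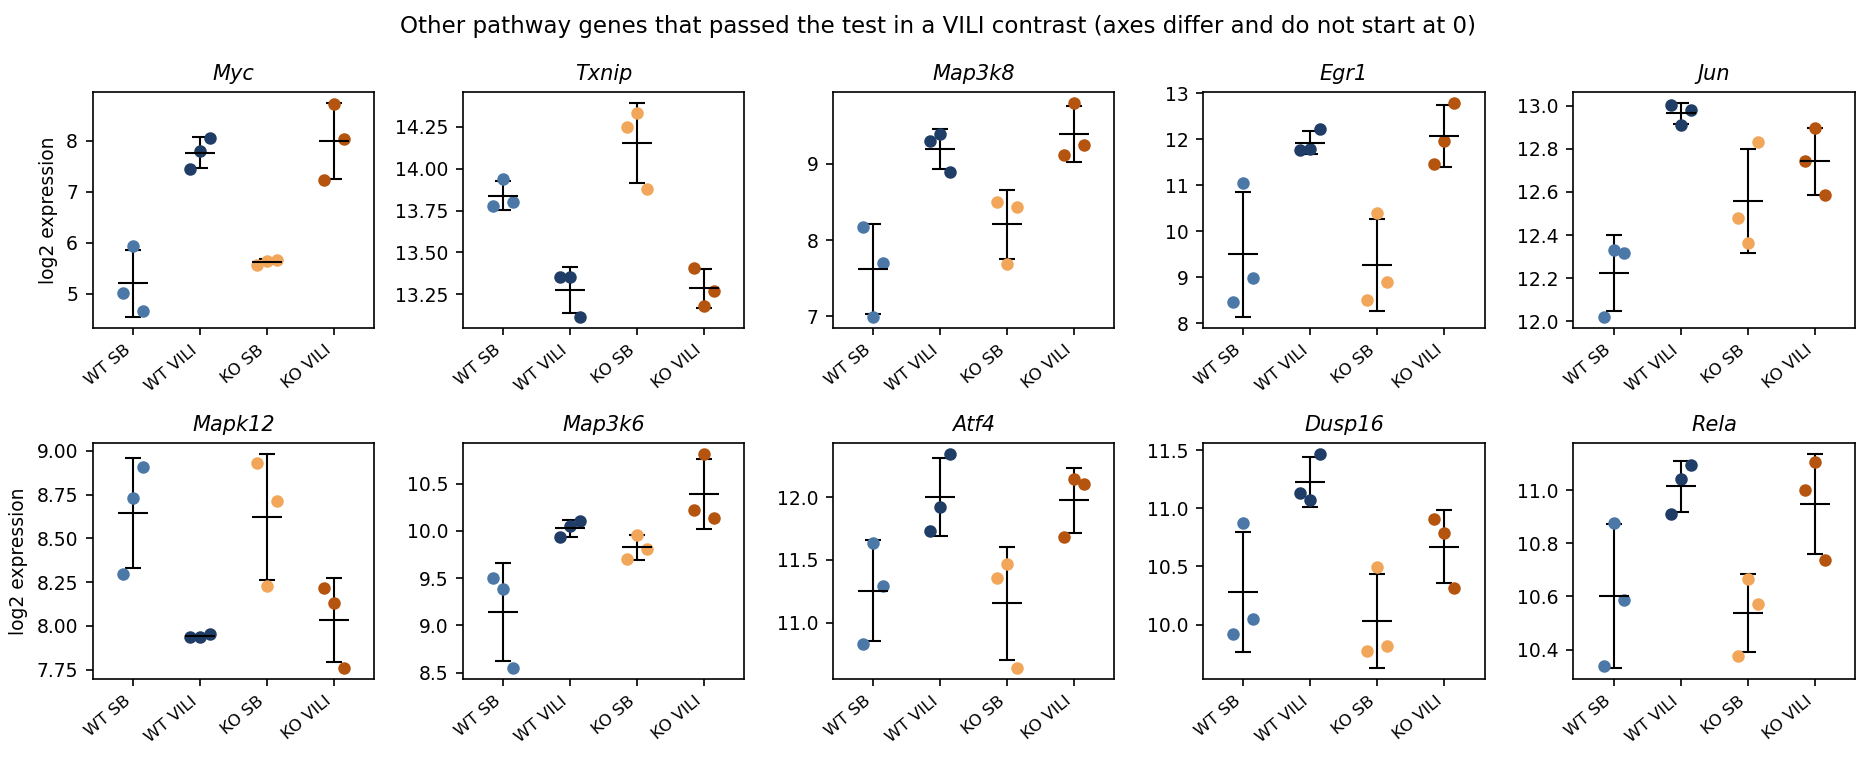
Log2 expression of the 10 other pathway genes that passed for VILI averaged over genotypes, with 1 point per array and a bar for the mean ± SD of 3 arrays; the axes differ between panels. Txnip and Mapk12 read lower in the VILI groups and the other 8 genes read higher.

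The tested genes next to Gadd45a on chromosome 6 gave a view of the knockout locus. On one side, Gng12, Mad2l1 and Ndnf differed between genotypes by -0.10, 0.29 and -0.58 averaged over treatments (adjusted p = 0.686, 0.671 and 0.45). On the other side, the nearest gene Serbp1, which encodes an mRNA binding protein, differed by 0.04 (SE 0.06, adjusted p = 0.758). The next tested genes there were immunoglobulin kappa genes, which B cells and plasma cells express. Igk read 2.97 to 6.65 on wild type arrays and 7.54 to 12.15 on knockout arrays, and a kappa variable gene read 2.38 to 5.81 and 7.24 to 11.66. For both genes the genotypes did not overlap in SB or after VILI. Wild type readings lay below the array medians on 5 of 6 arrays for Igk and 4 of 6 for the variable gene. Both genes thus needed the knockout arrays to pass the filter, so no test, fold or share of all genes is given. Immunoglobulin genes share sequence, and the part of B cells in the difference was not tested.

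The genes whose level ran most like each Gadd45 gene over the 12 arrays were named by Pearson's r alone. For Gadd45a they were Adamtsl2, a microfibril-associated protein (r = 0.960), Smoc2, a matricellular protein (r = 0.940), and Hps1, which acts in the formation of lysosome-related organelles (r = 0.925). Since Gadd45a differed mainly by genotype, genes picked this way would read lower in knockout, as each of them did. Hps1 read 7.42 ± 0.13 and 7.20 ± 0.07 in wild type and 5.54 ± 0.23 and 5.82 ± 0.06 in knockout (SB first; SD, n = 3). For Gadd45b they were Slu7 (r = 0.911), Scap (r = 0.907) and Dnajc5 (r = 0.902), a splicing factor, the chaperone of the sterol regulatory element binding proteins and a vesicle chaperone. For Gadd45g they were the RNA helicase Ddx47 (r = 0.965), Kctd9 (r = 0.959) and the translation initiation factor Eif4h (r = 0.954). Kctd9 read 7.98 ± 0.27 and 8.91 ± 0.14 in wild type and 7.88 ± 0.52 and 8.44 ± 0.43 in knockout (SB first; SD, n = 3), with replicate 3 lowest in both knockout groups as for Gadd45g. These correlations were picked as the highest of 10996 genes and describe the arrays only. Group or array patterns shared with the Gadd45 gene follow from that choice.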

How the data were processed

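Total RNA of whole lung was labelled with biotin and read on single-colour Affymetrix arrays, per the labels' protocols. The authors deposited log2 values on a normalized scale. MAS5 and GCRMA appear in the submitters' processing notes, with no role or order. Precision is limited by 3 arrays per group.

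The 64 control probe sets were left out, and a filter asked for values over the array's median on 3 or more of 12 arrays, which 23082 of 45037 probe sets met. The probe set with the highest mean stood for its gene. Of 34945 probe sets with 1 symbol, 34741 matched RefSeq by gene identifier. limma 3.58.1 in R 4.3.3 was fitted to 10996 genes and 12 arrays, 1 mean per group, with a mean-variance trend (8 residual and 3.36 prior degrees of freedom). The 7 contrasts were adjusted by Benjamini-Hochberg, two-sided, at 0.05. Intervals are 95%. The code was tested on simulated data. Neighbours in the order of levels were said to differ beyond their spread when the gap exceeded the larger SD.

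Genes named are all members, pathway genes called in a contrast, the 3 genes most like each Gadd45 gene, and the 3 tested neighbours of Gadd45a on each side. Members and lists were chosen with earlier results of these data known. The series design gives 3 mice per group, and p-values measure only the spread between these samples. In SB, same-numbered arrays of the genotypes correlated in their deviations from the group means at 0.231, 0.526 and 0.318. No pair of arrays was identical (0 pairs).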

Additional observations from a re-analysis of the deposited data

Results flagged for a closer look

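Jun met the rule for opposite directions between groups. Each knockout array lay above each wild type array in SB and below each wild type array after VILI, where 15.2% and 14.8% of all genes did not overlap. Neither genotype difference passed (0.34 in SB, limma adjusted p = 0.419, and -0.22 after VILI, adjusted p = 0.76). The interaction was -0.56 on the log2 scale (SE 0.18, unadjusted p = 0.0112, limma adjusted p = 1), so the difference between the treatments did not pass a test over all genes. Groups of 3 were too small for a test of single outlying arrays.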

How the results depend on the processing

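Of 1359 member values recomputed under other settings, 1302 kept their direction and side of the threshold, 10 were no longer past it, 12 newly passed and 35 changed sign, 0 of these past the threshold.

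For VILI in knockout the count of members called went from 1 to 0 with centred arrays, with the mean of a gene's kept probe sets (Map2k4 adjusted p = 0.165), with only the arrays of the groups compared (0.148) and without both knockout arrays numbered 3 (0.0679), and leaving out 1 array gave 0 to 1. For VILI in wild type it went from 0 to 1, Gadd45g, with only the arrays compared (adjusted p = 0.0414) and without both knockout arrays numbered 3 (0.0231), and leaving out 1 array gave 0 to 1 (Map3k4 at 0.0341 without knockout VILI replicate 2). Genotype in SB went from 1 to 0 with only the arrays compared. Averaged over genotypes, VILI gave 3 members, and 3 to 4 without 1 array. With the mean of the kept probe sets it gave 3 with Gadd45b (adjusted p = 0.0458) in place of Map2k4 (0.124). Genotype after VILI and averaged over treatments stayed at 1, and the interaction at 0.

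Same-numbered arrays were not taken as pairs for VILI, since not every SB and VILI pair of a genotype correlated above 0.1. In deviations from the group means these pairs correlated at -0.011, -0.037 and 0.059 in wild type and 0.047, 0.211 and 0.426 in knockout. Over all 18 same-numbered pairs of different groups the range was -0.163 to 0.526, and 9 of 12 arrays ran best with their own number. With a replicate block, 1 member was called for VILI in wild type (Gadd45g, adjusted p = 0.0187), 2 in knockout (Gadd45g at 0.0302 beside Map2k4) and 4 averaged over genotypes (Gadd45a at 0.0419 added). For genotype in SB, where the same-numbered arrays did correlate, the block gave the same 1 member, Gadd45a.

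The unequal change of Gadd45g and Gadd45b was 0.51, and 0.31 to 0.67 without 1 array (exact permutation p 0.005 to 0.095). With the other Gadd45b probe set, a setting added after seeing the data like the pathway counts, it was 0.27. The cause of these differences was not tested.

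Counts over all genes moved more. VILI in wild type gave 290, and 112 without a filter, 475 with only the arrays compared, 653 without both knockout arrays numbered 3, 442 with the block and 19 to 487 without 1 array. VILI in knockout gave 491, and 306, 11, 110, 667 and 69 to 713 in that order. Averaged over genotypes VILI gave 1958 (926 higher), 1816 (664 higher) centred, 2195 (806 higher) with quantile normalization, 3113 with every kept probe set and 1128 to 2084 without 1 array. In wild type 149 of 290 were higher, and 135 of 333 with quantile normalization. In knockout 304 of 491 were higher, 200 of 385 centred and 271 of 529 with quantile normalization. Genotype averaged over treatments gave 50, and 23 without a filter, 90 with every kept probe set, 28 without both knockout arrays numbered 3 and 22 to 161 without 1 array. Genotype in SB gave 12, and 23 with every kept probe set, and genotype after VILI 11, 23 with every kept probe set and 8 to 42 without 1 array.

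No value that changed sign passed the threshold before or after. With centred arrays, genotype after VILI was -0.0483 for Gadd45b and -0.0374 for Mapk14. With the mean of the kept probe sets, VILI was 0.24 for Mapk14 in wild type and 0.0262 for Mapk8 in knockout, genotype in SB was 0.12 for Map3k4 and 0.13 for Map3k5, the Map3k4 interaction was -0.0757, and genotype averaged over treatments was 0.0911 for Map2k4. Without both knockout arrays numbered 3, genotype in SB was 0.0061 for Map3k4 and 0.0557 for Map3k5. Without 1 array, VILI ran from -0.19 to 0.0559 for Mapk14 in wild type and -0.20 to 0.073 for Mapk8 in knockout. Genotype in SB ran from -0.27 to 0.0607 for Gadd45b, -0.17 to 0.0744 for Map3k4 and -0.0943 to 0.0557 for Map3k5. After VILI it ran from -0.15 to 0.27 for Gadd45b, -0.20 to 0.0187 for Map2k6 and -0.13 to 0.11 for Mapk14, and averaged from -0.13 to 0.0778 for Gadd45b and -0.0131 to 0.18 for Map3k4. The interaction ran from -0.77 to 0.0145 for Gadd45a, -0.0411 to 0.38 for Gadd45b, -0.41 to 0.0911 for Gadd45g and -0.0601 to 0.25 for Map2k6.

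Signal over background limits Map2k6, knockout Gadd45a and 1 Map3k4 probe set.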
